A study of Mus musculus with 8 samples.

Results

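The 10 transcripts Ifng, Tnf, Lta, Ltb, Csf2, Fasl, Ccl3, Ccl4, Ccl5 and Xcl1, which encode effector cytokines and chemokines of cytotoxic lymphocytes, were examined in unstimulated splenic NK cells and CD8+ T cells. They were chosen by name, with earlier results of these data known, and are 10 of the 54232 gene IDs of the count table. Each cell type was represented by 3 RNA-seq libraries from mice labelled Tyk2 knockout, of strain C57BL/6 in the labels and C57BL/6N in the study's methods, 8 to 12 weeks old and kept under homeostatic conditions. Every library came from cells of 3 littermate spleens that were pooled and sorted by flow cytometry, the NK cells as NK1.1+ cells. Both groups carried the Tyk2 knockout label, so that every difference described here is one between cell types of the same labelled genotype. The methods of the study name a constitutive knockout stock and a stock made with a ubiquitously expressed Cre, and the labels do not say which one gave these cells. WT libraries were not used here.

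Cytotoxic lymphocytes act on other cells by killing and by secretion, and these 10 genes cover much of the secreted side. Interferon-gamma activates macrophages and raises antigen presentation, members of the TNF family signal through death and lymphoid organ receptors, and the chemokines draw in monocytes, T cells and cross-presenting dendritic cells. NK cells are known to hold transcripts of several of these genes before any stimulus, whereas naive T cells acquire most of them after priming. TYK2 is a Janus kinase that passes on type I interferon and IL-12 signals.

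Total counts per library ranged from 20957384 to 26144478 in CD8+ T cells and from 32848432 to 38573550 in NK cells. Counts were normalised with TMM factors, and normalised counts are given as mean ± SD of 3 libraries. The sorted cells carried their defining markers. The raw count of Ncr1, the NK cell receptor NKp46, was 137008 to 195219 in NK cells and 0 in each CD8+ T cell library, and that of Cd8b1 was 60044 to 80266 in CD8+ T cells and 0 in each NK cell library. B cell markers were counted in the CD8+ T cells as well, where the normalised counts of 5 such genes summed to 75450, 49421 and 54486 in libraries 1, 2 and 3, against 10960 to 13138 in NK cells. Tyk2 itself had 105 to 919 counts in CD8+ T cells, compared with 3207 to 4245 for NK cells, and with no WT library used here these counts do not check the genotype. The CD8+ T cell libraries differed more among themselves than the NK cell libraries, with a common biological coefficient of variation of 1.40 over 11773 genes against 0.847 over 13988 genes.

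NK cells carried most of these transcripts in every library, whereas CD8+ T cells carried 2 of them in every library. Fasl, Ccl5 and Xcl1 were higher in NK cells, Ltb was higher in CD8+ T cells, and the other members were not called at an adjusted p of 0.05 (quasi-likelihood test of edgeR, Benjamini-Hochberg adjusted over 14062 genes). Thus 4 of the 10 genes were called, 5 were tested and not called, and Csf2 did not pass the filter on low counts. Over all 14062 genes tested, 11.4% were called, 6.24% as higher in NK cells and 5.14% as higher in CD8+ T cells. For 7 of the 10 genes the ranges of both cell types were apart, which held for 41.6% of all genes tested. Ifng, Fasl, Ccl3, Ccl4, Ccl5 and Xcl1 were the 6 with all NK cell libraries on top (25.5% of all genes tested), and Ltb was the 1 with all CD8+ T cell libraries on top (16.1%). With 3 libraries against 3, an exact two-sided permutation test cannot give a p below 0.1, which each of these 7 genes reached (adjusted p = 0.129 over 9 tests). In bulk samples such as these, fewer cells that transcribe a gene and less RNA per cell cannot be told apart. The p-values measure the spread between these libraries, each of which is a pool of animals.

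**Figure D1:**
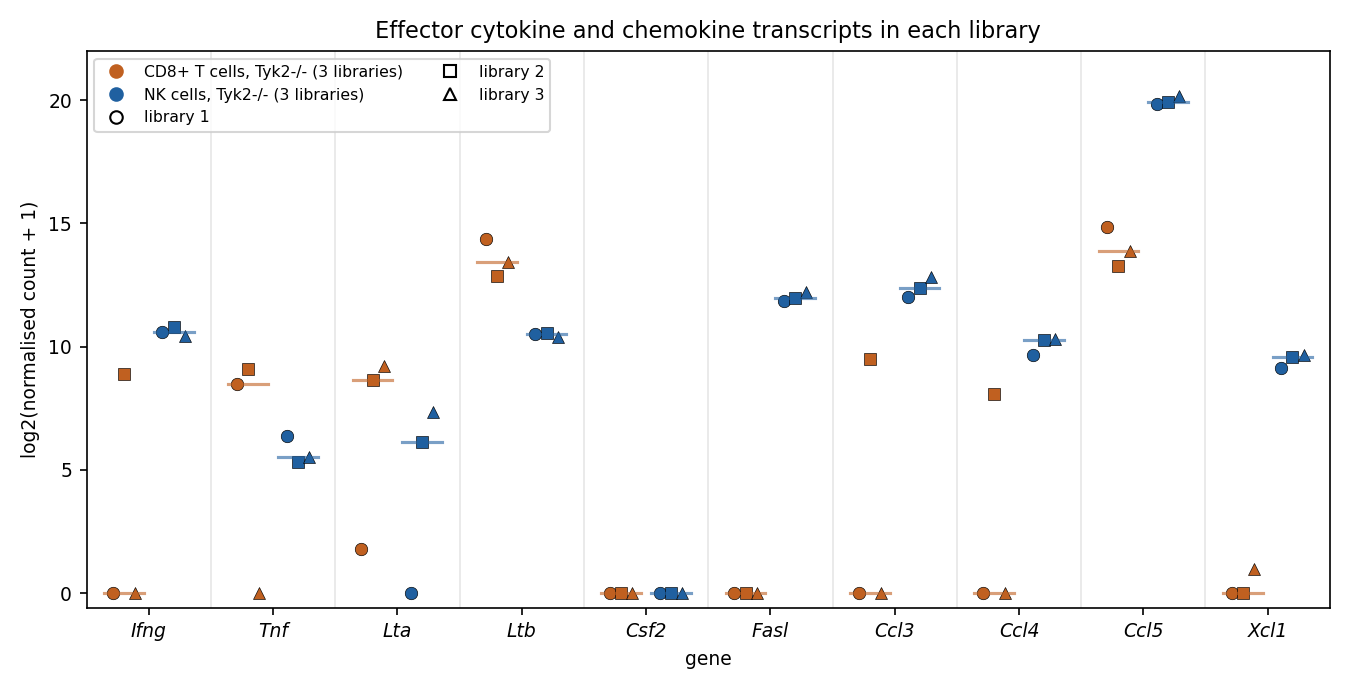
Normalised counts of the 10 genes on a log2 scale after adding 1, one point per library (circle, square and triangle for libraries 1, 2 and 3) and a line at the median of 3 libraries, CD8+ T cells in orange and NK cells in blue. Ifng, Ccl3 and Ccl4 are above 0 in CD8+ T cell library 2 and at 0 in libraries 1 and 3, whereas the NK cell libraries lie close together for every gene except Tnf and Lta.

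The stretches of DNA before the start sites are shown for the 4 called genes and for Ifng and Ccl3, as far as RefSeq windows on GRCm38.p6 were at hand, to give the sequence context of the genes described here. Windows were found for 8 of the 10 genes, with no entry for Ccl4 and Ccl5. Each line is read 5′ to 3′ on the strand of the gene and ends at the base before the RefSeq start, except that bases annotated as exon were left out, so that the lines of Ltb and Xcl1 stop 68 and 5 bases earlier. Distances are counted from the RefSeq start and include the bases left out. Capitals mark matches, on either strand, to 6 short motifs. The T-box motif, read by T-bet and Eomes, was searched as GTGTGA. The NFAT motif, read by the calcium-dependent factors of activated lymphocytes, was searched as TGGAAA. The NF-kB motif was searched by its usual form, in which GGG and TTCC stand on either side of 3 bases of any kind. The AP-1 motif of Fos and Jun dimers was searched as TGANTCA. The gamma-activated sequence (GAS), read by dimers of STAT proteins, was searched as TTCNNNGAA. The TATA box, which positions the start of transcription, was searched as TATAAA. The regions are chr10:118440796-118441045 (plus strand, Ifng), chr17:35194257-35194438 (plus strand, Ltb), chr1:161788496-161788745 (minus strand, Fasl), chr11:83649379-83649628 (minus strand, Ccl3) and chr1:164935528-164935772 (minus strand, Xcl1).
Ifng: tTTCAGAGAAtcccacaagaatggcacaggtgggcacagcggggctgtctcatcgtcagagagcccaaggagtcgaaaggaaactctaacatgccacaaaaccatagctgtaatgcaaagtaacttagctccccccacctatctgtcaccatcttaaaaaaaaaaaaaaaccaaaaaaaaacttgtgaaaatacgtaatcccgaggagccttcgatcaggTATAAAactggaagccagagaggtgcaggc
Ltb: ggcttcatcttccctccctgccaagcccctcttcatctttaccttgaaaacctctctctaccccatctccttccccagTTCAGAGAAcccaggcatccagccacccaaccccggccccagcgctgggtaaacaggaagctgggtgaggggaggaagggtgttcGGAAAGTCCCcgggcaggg
Fasl: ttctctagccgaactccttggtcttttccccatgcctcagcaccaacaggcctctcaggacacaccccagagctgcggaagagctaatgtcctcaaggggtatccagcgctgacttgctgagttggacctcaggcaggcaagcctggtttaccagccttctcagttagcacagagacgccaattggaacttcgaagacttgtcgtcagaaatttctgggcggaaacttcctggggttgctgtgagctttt
Ccl3: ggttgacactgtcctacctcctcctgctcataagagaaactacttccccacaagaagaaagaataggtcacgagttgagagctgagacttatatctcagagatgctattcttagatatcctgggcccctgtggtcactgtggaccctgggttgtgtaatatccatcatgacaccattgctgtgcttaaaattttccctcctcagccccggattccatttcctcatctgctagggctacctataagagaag
Xcl1: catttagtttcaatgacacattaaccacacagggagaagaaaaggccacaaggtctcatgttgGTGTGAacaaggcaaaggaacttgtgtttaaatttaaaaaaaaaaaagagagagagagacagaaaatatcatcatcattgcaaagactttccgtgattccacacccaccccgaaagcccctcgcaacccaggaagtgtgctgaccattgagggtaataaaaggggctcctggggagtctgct
Xcl1 held a T-box match 187 bases before its start, a motif found in 12.3% of 32851 windows of 250 bases. Ifng held a GAS match at 249 bases (7.02% of windows) and a TATA box at 30 bases (12.4%). Ltb held an NF-kB match on the opposite strand at 87 bases (4.65% of windows) and a GAS match at 172 bases. None of the 6 motifs was found in the windows of Fasl and Ccl3, which says only that these letters are not there. Among the windows not printed, Tnf held an NFAT match and a TATA box, Lta held GAS matches and a TATA box, and Csf2 held an NFAT match. NFAT and AP-1 matches were found in 18.6% and 6.75% of all windows. A match is a description of the letters and was not tested for binding.

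Ifng (ENSMUSG00000055170, chromosome 10, 118441046 to 118445892, plus strand, GRCm38), the gene of interferon-gamma, had raw counts of 1597, 2140 and 1541 in NK cells and of 0, 384 and 0 in CD8+ T cells. Each NK cell library lay above each CD8+ T cell library, but the CD8+ T cells did not share a level: library 2 held Ifng and the other libraries had 0 counts. In those libraries, absence of the transcript and failure to capture it were not told apart. The normalised count of Ifng was 1577 ± 205 in NK cells and 157.0 ± 272 in CD8+ T cells, a log2 fold change of 3.33 (SE 2.31) that was not called (edgeR adjusted p = 0.368). Exons of Ifng overlap those of the annotated gene Gm49751 on the same strand, which had at most 6 counts in CD8+ T cells, compared with 23 to 202 for NK cells, so that reads may have been split between them or dropped.

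The TNF family genes Ltb, Tnf and Lta lie side by side within 10913 bp of chromosome 17, and all had higher mean levels in CD8+ T cells, though Ltb alone was called. Ltb (ENSMUSG00000024399, 35194439 to 35196320, plus strand) encodes lymphotoxin-beta, which anchors lymphotoxin-alpha at the cell surface and binds the receptor Ltbr. Its raw count was 16988, 6081 and 11340 in CD8+ T cells, compared with 1516, 1811 and 1476 for NK cells. No library of one cell type reached the range of the other. The normalised count was 13072 ± 6907 against 1439.7 ± 99.9, so that NK over CD8+ T cells gave a log2 fold change of -3.18 (SE 0.41, edgeR adjusted p = 0.00613). CD8+ T cell library 1, the highest in Ltb, also had the highest sum of B cell markers. Without that library the Ltb difference was still called, with a log2 fold change of -2.67 (SE 0.24, adjusted p = 0.00418), within a range of 1.45e-11 to 0.0451 over 10 alternative settings. The B cell marker sums of CD8+ T cell libraries 2 and 3, 49421 and 54486, were also above the 10960 to 13138 of NK cells. The part of B cells in the Ltb values was not tested.

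Tnf (ENSMUSG00000024401, 35199381 to 35202007, minus strand), the gene of the inflammatory cytokine TNF, had 290, 447 and 0 counts in CD8+ T cells, compared with 83, 47 and 50 for NK cells. NK cells held a low level in each library, whereas CD8+ T cells held more of it in libraries 1 and 2 and none in library 3, so that the cell types overlapped. The normalised counts were 301.0 ± 278 and 55.0 ± 22.5, a log2 fold change of -2.45 (SE 2.01, edgeR adjusted p = 0.456).

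Lta (ENSMUSG00000024402, 35203165 to 35205351, minus strand) encodes lymphotoxin-alpha, which is secreted or held at the membrane by lymphotoxin-beta. It had 2, 327 and 616 counts in CD8+ T cells, compared with 0, 83 and 182 for NK cells. One library of each cell type was at or below the floor of 3 counts, under which a gene was taken as not detectable, so that Lta varied more within a cell type than between them. The normalised counts were 333.2 ± 303 and 77.7 ± 82.1, a log2 fold change of -2.10 (SE 2.25, edgeR adjusted p = 0.575). In exact two-sided permutation tests p was 0.4 for Tnf and 0.3 for Lta (adjusted p = 0.4 and 0.338).

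Fasl (ENSMUSG00000000817, chromosome 1, 161780689 to 161788495, minus strand), the death ligand that engages Fas on target cells, was the clearest of the NK cell transcripts. It had 3770, 4833 and 5226 counts in NK cells and 0 in each CD8+ T cell library. The normalised count of NK cells was 4138 ± 521. Set against the floor of 3 counts per CD8+ T cell library, Fasl was at least 1211-fold higher in NK cells (edgeR adjusted p = 0.00076). The floor covers counting error only, since no molecular identifiers were used. Its receptor went the other way. Fas had 3060, 2303 and 2870 counts in CD8+ T cells, compared with 33, 27 and 15 for NK cells, a log2 fold change of -7.09 (SE 0.53, edgeR adjusted p = 0.000775).

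The CC chemokine genes Ccl5, Ccl3 and Ccl4 lie within 138906 bp of chromosome 11 and encode attractants of monocytes and T cells. Ccl5 (ENSMUSG00000035042, 83525778 to 83530518, minus strand), also known as RANTES, had 968022, 1183681 and 1291571 counts in NK cells and 24214, 8057 and 15610 in CD8+ T cells. All CD8+ T cell libraries thus held the transcript, and all NK cell libraries held far more. It made up 3.16% ± 0.263 of all counts in NK cells and 0.0711% ± 0.0399 in CD8+ T cells (SD, n = 3). The normalised counts were 1031523 ± 114945 and 18204 ± 10230, a log2 fold change of 5.82 (SE 0.47, edgeR adjusted p = 0.00102).

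Ccl3 (ENSMUSG00000000982, 83647844 to 83649355, minus strand) encodes MIP-1 alpha and had 4273, 6255 and 8116 counts in NK cells and 0, 585 and 0 in CD8+ T cells. Ccl4 (ENSMUSG00000018930, 83662584 to 83664683, plus strand) encodes MIP-1 beta and had 820, 1460 and 1404 counts in NK cells and 0, 217 and 0 in CD8+ T cells. Both chemokines were thus found in the same CD8+ T cell library that held Ifng, and in no other. The normalised count of Ccl3 was 5565 ± 1594 in NK cells and 239 ± 414 in CD8+ T cells, a log2 fold change of 4.54 (SE 2.28, edgeR adjusted p = 0.224). That of Ccl4 was 1094 ± 257 and 88.7 ± 154, a log2 fold change of 3.62 (SE 2.31, edgeR adjusted p = 0.329). Neither difference was called, although all 3 NK cell libraries exceeded all 3 CD8+ T cell libraries for both genes.

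Xcl1 (ENSMUSG00000026573, chromosome 1, 164931644 to 164935527, minus strand) encodes lymphotactin, which attracts dendritic cells that bear Xcr1. It had 572, 907 and 908 counts in NK cells and 0, 0 and 1 in CD8+ T cells, with normalised counts of 710.9 ± 137 in NK cells. In CD8+ T cells Xcl1 was not detectable at the floor of 3 counts per library. Set against that floor, it was at least 208.0-fold higher in NK cells (edgeR adjusted p = 0.00705). The ratio of the summed counts, corrected for library size, was 1909 with a 95% counting interval of 342.3 to 75429. That interval is wide because it rests on a single count in CD8+ T cells, and it covers counting error only. Exons of Xcl1 overlap those of Gm20743 on the opposite strand, with 141 to 181 counts in NK cells and 0 in CD8+ T cells, and the use of strand in the counting is not stated. Csf2 (ENSMUSG00000018916, chromosome 11, 54247271 to 54249667, minus strand), the gene of GM-CSF, had 0 counts in all 6 libraries. It was not detectable at a floor of 0.159 RPKM (reads per kb of exon, scaled to the effective library size) in CD8+ T cells, compared with 0.126 for NK cells, and no fold was computed.

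Per length of exon, the order of the 10 genes differed between the cell types. In NK cells Ccl5 had the highest level of all 54079 genes with a known length, at 67077 ± 7475 RPKM. Ccl3 came next at 251.3 ± 72.0, followed by Fasl at 73.9 ± 9.30. The ranges of these 3 genes did not overlap each other, but that of Fasl (65.5 to 83.9) overlapped that of Ccl4 (41.8 to 66.2). Lower in mean, Ccl4 (57.4 ± 13.5), Xcl1 (47.0 ± 9.03), Ifng (45.2 ± 5.86) and Ltb (42.3 ± 2.93) formed a group in which neighbours overlapped. Lta (1.94 ± 2.05) and Tnf (1.16 ± 0.47) lay well under Ltb and overlapped each other.

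In CD8+ T cells Ccl5 was again first among the 10 genes at 1184 ± 665 RPKM, rank 58 of all genes, and Ltb was second at 383.9 ± 203, rank 226. Their ranges, 642.5 to 1926 and 219.0 to 610.4, did not overlap. Ccl3 (10.8), Lta (8.33), Tnf (6.35), Ccl4 (4.65) and Ifng (4.50) followed as means of libraries that included at least one at or below the floor, and no neighbours among them were separated. Fasl and Csf2 were at 0. In all, 3, 7 and 3 of the 10 genes were above 3 counts in CD8+ T cell libraries 1, 2 and 3, and 8, 9 and 9 in NK cell libraries 1, 2 and 3.

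**Figure D2:**
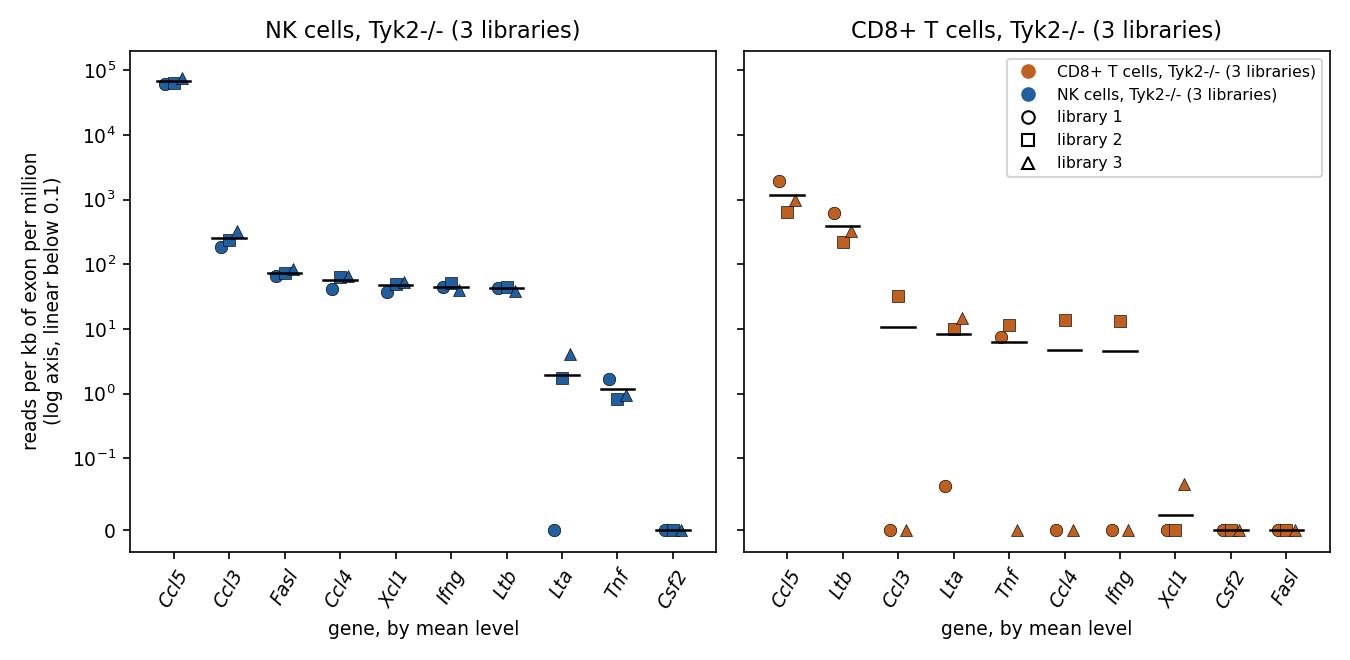
Levels of the 10 genes in RPKM (log axis, linear below 0.1), one point per library and a line at the mean of 3 libraries, with genes ordered by mean level in NK cells (left) and CD8+ T cells (right). Ccl5 leads in both cell types, at a mean of 67077 in NK cells and 1184 in CD8+ T cells, and Ltb moves from seventh in NK cells to second in CD8+ T cells.

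Ratios of levels per length within a library were computed for a few pairs of the 10 genes, without a background over other pairs. The ratio of Ccl5 to Ltb was 3.16, 2.93 and 3.05 in CD8+ T cell libraries 1, 2 and 3, although each gene varied more between these libraries than most genes of similar level. The coefficient of variation was 56.2% for Ccl5 and 52.8% for Ltb, against a median of 24.5% for 411 genes of similar mean level in CD8+ T cells, of which 1.95% and 2.92% varied as much. In NK cells the ratio of Ccl5 to Ltb was 1414, 1447 and 1938, and the coefficients of variation were 11.1% and 6.94%. Where Lta was above the floor, the ratio of Ltb to Lta was 21.8 and 21.6 for CD8+ T cells (libraries 2 and 3) and 25.6 and 9.52 for NK cells (libraries 2 and 3). CD8+ T cell library 1, with 16988 counts of Ltb and 2 of Lta, did not keep that proportion. The ratio of Ltb to Tnf was 81.5 and 18.9 in CD8+ T cell libraries 1 and 2, and 25.4, 53.6 and 41.1 in NK cells. The ratio of Ccl3 to Ccl4 was 4.49, 3.69 and 4.98 in NK cells and 2.32 in CD8+ T cell library 2. That of Ccl5 to Ccl3 was 326, 272 and 229 in NK cells and 19.8 in CD8+ T cell library 2.

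Of the 10 genes, Ifng, Ccl3 and Ccl4 had at least 100 counts in CD8+ T cell library 2 and at most 3 in libraries 1 and 3. This pattern was found in 445 genes, or 3.16% of those tested, for library 2, and in 2% and 2.37% for libraries 1 and 3, where it held none of the 10 genes. Library 2 also had the most genes with a count, 14042 against 12893 and 12972. At mean normalised counts of 100 to 1000, as for Ifng and Ccl3, 21.8% of genes had a CD8+ T cell library at 0, against 1.40% for NK cells. At 10 to 100, as for Ccl4, these shares were 62.4% and 32.4%. Of CD8+ T cell genes in these classes, 5.47% varied as much as Ifng and Ccl3, and 33.7% as much as Ccl4. NK cell markers did not show the library 2 pattern as a list. The sum of 6 NK cell markers was 1945, 1670 and 694 normalised counts in CD8+ T cell libraries 1, 2 and 3, against at least 1465795 in NK cells. Ncr1 was at 0 in library 2, whereas Tyrobp, a signalling adaptor of NK receptors and myeloid cells, had 0, 544 and 0 counts. Members of the list differed in direction, with Gzma at 1412, 568 and 0 counts and Klrb1c at 1, 76 and 525. The part of NK cells in these values was not tested. In library 2 the normalised count of Ifng was 470.9, that of Ccl3 was 717.4 and that of Ccl4 was 266.1.

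Leaving out CD8+ T cell library 2 brought Ifng (edgeR adjusted p = 0.00371), Ccl3 (0.00222) and Ccl4 (0.00673) under the threshold, with levels in NK cells at least 489-fold, 1726-fold and 339-fold above the floor of the remaining CD8+ T cell libraries. These bounds leave out the CD8+ T cell library that held the transcripts. With it, the log2 fold changes were 3.33, 4.54 and 3.62, and none was called. Without library 2, 7 of the 10 genes were called, where 13.9% of 14032 genes were, and 6 of them were higher in NK cells, where 8.59% of all genes were. Over all 10 alternative settings the adjusted p ranged from 0.00371 to 0.543 for Ifng, from 0.00222 to 0.389 for Ccl3 and from 0.00673 to 0.514 for Ccl4. Xcl1 lost its call without NK cell library 2 (adjusted p = 0.0504) or library 3 (0.0538). Fasl, Ccl5 and Ltb were called under each alternative, and Tnf and Lta under none.

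**Figure D3:**
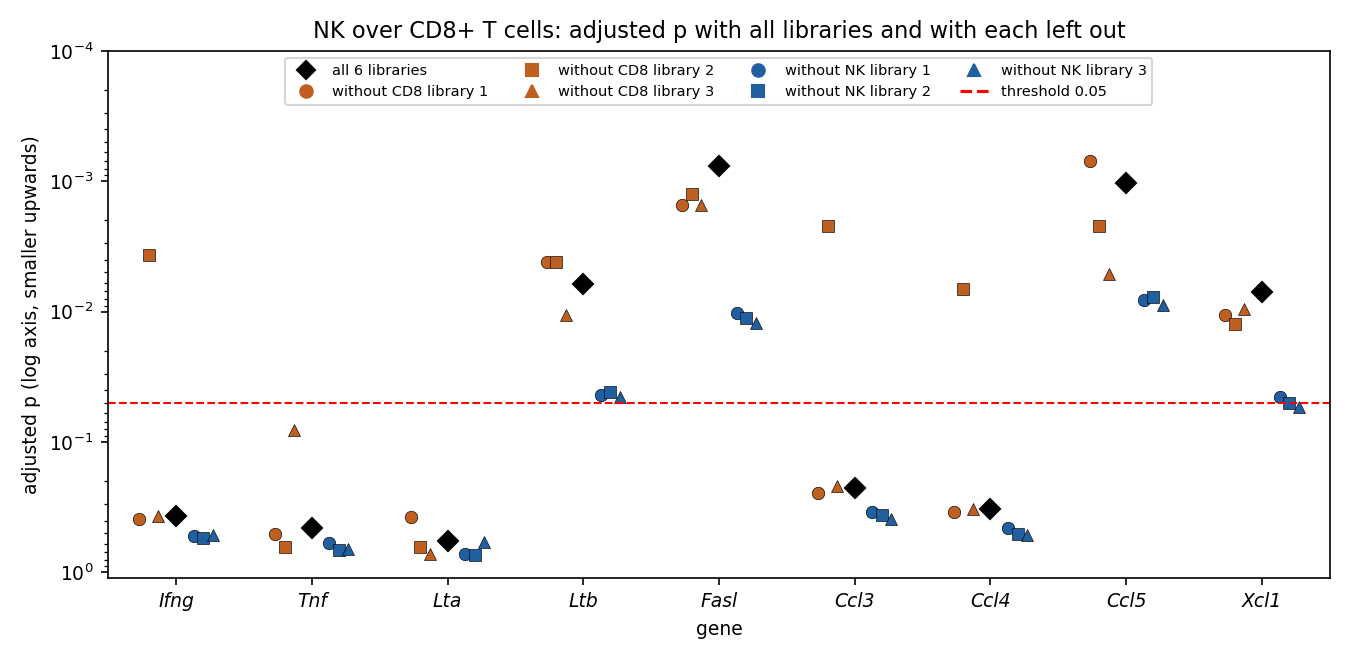
Adjusted p of NK over CD8+ T cells (edgeR, log axis with small values at the top) for the 9 tested genes, with all 6 libraries (diamonds) and with each library left out in turn (orange for a CD8+ T cell library, blue for an NK cell library). Ifng, Ccl3 and Ccl4 cross the dashed threshold of 0.05 only without CD8+ T cell library 2, and Xcl1 falls short of it without NK cell library 2 or 3.

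Among 14 genes of receptors for these ligands, 9 were tested, 2 were higher in NK cells and 1 in CD8+ T cells, with a median log2 fold change of 1.52 against 0.10 for all genes tested. Of all genes tested, 6.24% and 5.14% were called in these directions. Csf2ra, which encodes the alpha chain of the GM-CSF receptor, had 117, 220 and 86 counts in NK cells and 0 in CD8+ T cells (at least 36.6-fold higher, edgeR adjusted p = 0.0485). Fas, described with its ligand, was the one receptor gene higher in CD8+ T cells. CD8+ T cells thus carried Fas with no count of its ligand. Ifngr1, the ligand-binding chain of the interferon-gamma receptor, was counted at 13644 to 14393 in CD8+ T cells, compared with 23176 to 32599 for NK cells and was not called (log2 fold change 0.65, SE 0.18, adjusted p = 0.0619). Xcr1 had at most 12 counts in any library.

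Of 25 other cytokine and chemokine genes, 13 were tested and 10 were at 0 in all libraries. Tnfsf14, Flt3l and Ccl9 were higher in NK cells and Mif was higher in CD8+ T cells, and the median log2 fold change of the list was -0.12. The shares over all genes tested were 6.24% and 5.14% in these directions, and the median was 0.10. Tnfsf14, which encodes the TNF family ligand LIGHT that shares the receptor Ltbr with lymphotoxin, had 1827, 1522 and 1289 counts in NK cells and 0, 1 and 0 in CD8+ T cells (edgeR adjusted p = 0.00307). Flt3l, a growth factor for dendritic cells, was higher by a log2 fold change of 1.31 (SE 0.25, adjusted p = 0.0208). Mif, a macrophage migration inhibitor, fell by 2.32 on the log2 scale from CD8+ T to NK cells (SE 0.31, adjusted p = 0.00661). Ccl9, a CC chemokine, had 0 counts in CD8+ T cells, compared with 308, 2388 and 307 for NK cells (adjusted p = 0.0283), with NK cell library 2 far above the other two.

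All 19 transcription regulators of cytokine genes were tested, of which 7 were higher in NK cells and 2 in CD8+ T cells (median log2 fold change 1.01). Over all genes tested, 6.24% were called as higher in NK cells and 5.14% as higher in CD8+ T cells, with a median of 0.10. Id2, an inhibitor of E proteins needed for NK cells, was higher in NK cells by 4.90 (log2, SE 0.23, edgeR adjusted p = 0.000225). Prdm1, the gene of Blimp-1, had 0 counts in CD8+ T cells, compared with 3344 to 4135 for NK cells (at least 976-fold higher, adjusted p = 0.000924). Tcf7, which encodes the TCF1 factor of naive and memory T cells, was lower in NK cells by a log2 fold change of -3.20 (SE 0.23, adjusted p = 0.000739). Nfkbia, the NF-kB inhibitor, also had a negative log2 fold change, at -1.71 (SE 0.17, adjusted p = 0.00196). Chosen after their values were seen, the T-box factors that act on Ifng were both higher in NK cells. Tbx21, the gene of T-bet, had 0, 11 and 0 counts in CD8+ T cells, compared with 33386 to 40199 for NK cells (log2 fold change 12.91, SE 1.27, adjusted p = 0.00216), and Eomes differed by 3.41 (log2, SE 0.48, adjusted p = 0.00807).

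All 8 regulators of cytokine mRNA decay were tested and 2 were called, both higher in NK cells (median log2 fold change 0.80). Of all genes tested, 11.4% were called, 6.24% as higher in NK cells. Zfp36l1 and Zfp36, which encode proteins that bind AU-rich elements and promote mRNA decay, had log2 fold changes of 5.36 (SE 0.53, edgeR adjusted p = 0.00211) and 2.46 (SE 0.60, adjusted p = 0.0487). Of 12 early response genes, which mark recent activation or handling of cells, Dusp2 alone was called, at 1.54 (SE 0.25, adjusted p = 0.0128), and the median of 0.09 was close to that of all genes. In CD8+ T cells the early response genes had no common pattern over the libraries. Fos had 3363, 2969 and 1 counts and Jun 2227, 418 and 0 in libraries 1, 2 and 3. By contrast Fosb (0, 73 and 0 counts), Nr4a1 (1, 54 and 1) and Nr4a2 (32, 188 and 0), named after their values were seen, were highest in library 2, where Ifng, Ccl3 and Ccl4 were found. Egr1 (778, 199 and 736) and Egr2 (2123, 1 and 62) were lowest in that library. The sum of all 12 genes was 32025, 16797 and 13209 normalised counts, highest in library 1. The part of recent activation in these values was not tested.

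**Figure D4:**
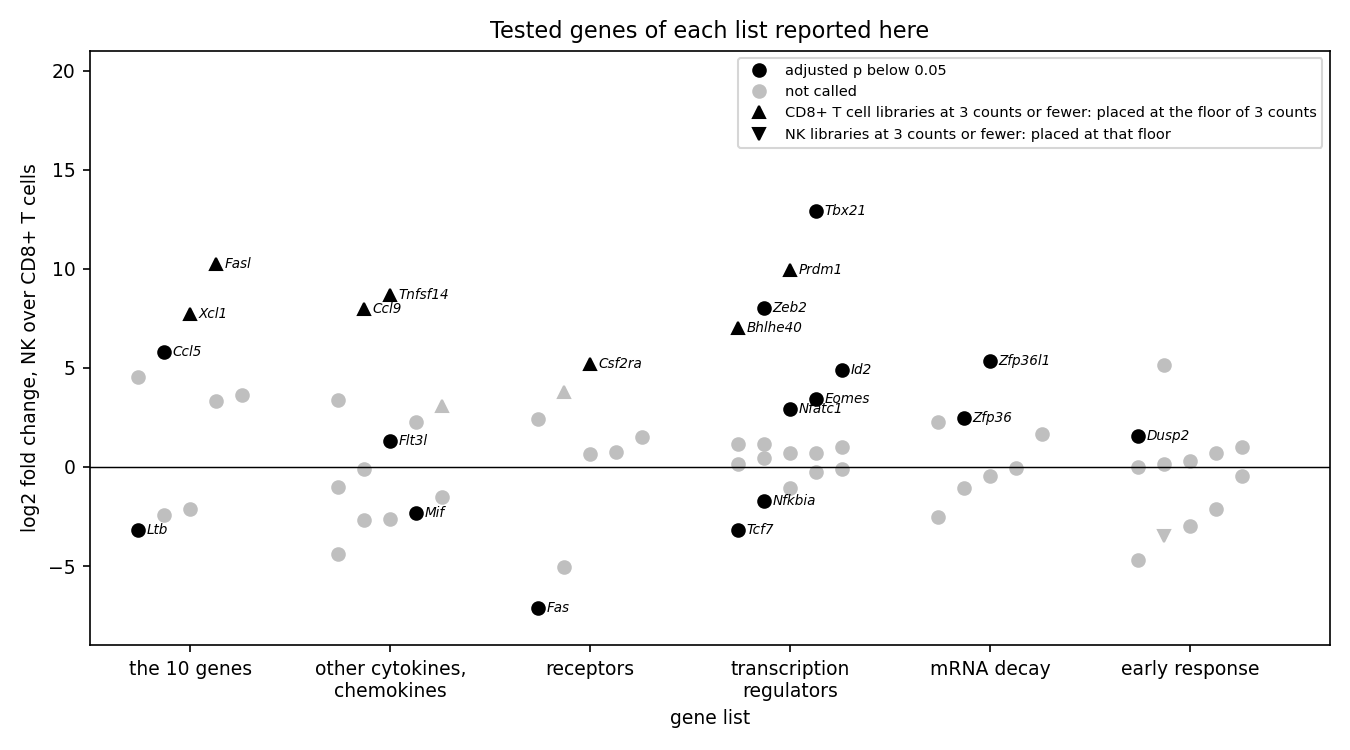
Log2 fold changes of NK over CD8+ T cells for tested genes of 6 lists (a gene not reported here is left out), with called genes in black and named, other genes in grey, and triangles for genes with 3 counts or fewer in each library of a cell type, which are placed at the floor of 3 counts. Fasl, Xcl1 and Ccl5 lie above 0 and Ltb below it, and the lists of receptors and transcription regulators hold called genes on both sides.

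The genes most like Ccl5 and Ifng over the 6 libraries were found by the Pearson correlation of log2 normalised counts after adding 1, which describes these libraries only, since the 2 cell types and the depth are shared by all genes. Closest to Ccl5 were the NK receptor gene Klre1 (r = 0.9995), D130017N08Rik (0.9989) and Gm12715 (0.9987). Closest to Ifng were Thtpa (0.9998), Abcg2 (0.9993) and Plin2 (0.9989), each of them at 0 counts in CD8+ T cell libraries 1 and 3 and above 0 in library 2. Among the 10 genes, Ifng was most like Ccl4 (0.998) and Ccl3 (0.997).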

How the data were processed

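RNA of sorted splenic NK cells and CD8+ T cells was amplified by a Smart-seq2 protocol from 500 pg and sequenced as single-end reads of 50 bases. The authors trimmed reads (Trimmomatic 0.32), aligned them to mm10 with STAR 2.7.1, and used summarizeOverlaps on a GENCODE Basic annotation to count unique alignments over exons. The deposited values are these raw counts per gene. Reads with several alignments were left out, so genes with near copies can be undercounted. The versions are from the submitters' processing notes. Out of 104 value columns, 6 entered the tests and 98 were not used here. Unused ones include 3 columns labelled as WT CD8+ T cells, which could not be tied to the 2 WT samples.

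Of 54232 gene IDs, 54079 matched a symbol and exon length in GENCODE M21 on GRCm38, and 153 did not. Genes averaging 10 or more normalised counts were tested in R 4.3.3 with edgeR 4.0.16 (TMM, robust quasi-likelihood, 3 against 3 libraries, Benjamini-Hochberg adjustment over 14062 genes), and called at an adjusted p below 0.05. SE was the absolute log2 fold change over the root of F. A gene at 3 counts or fewer in each library of a group was taken as not detectable. Single values were compared by exact permutation tests (scipy 1.17.1). Alternatives were RLE factors, DESeq2 1.42.0, no filter and leaving out each library. Scripts were tested on simulated data, where detection of changed genes was required only at a spread far below that of these libraries. That test does not measure the power reached here. The members and lists were chosen with earlier results of these data known, and the promoter motifs after the data were seen. Named genes were the 10 members, Tyk2, up to 4 called genes of each list by adjusted p, receptors, defining markers, and the 3 genes most like Ccl5 and Ifng. Promoter windows are from RefSeq on GRCm38.p6. A few single-gene results are left out of the report.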

Additional observations from a re-analysis of the deposited data

How the results depend on the processing

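No result reversed its direction among the 9 tested genes under 10 alternatives. The number of the 10 genes called was 4 with all libraries, with RLE factors, with DESeq2 and without the filter, and ranged from 3 to 7 when a library was left out. It was 7 without CD8+ T cell library 2, where Ifng, Ccl3 and Ccl4 were added, and 3 without NK cell library 2 or 3, where Xcl1 was lost. Over all genes, 1600 were called by edgeR, 1619 with RLE factors, 1336 without the filter, 3729 by DESeq2 and 4007 by DESeq2 with its Cook's distance filter turned off, a setting chosen after seeing the data. Leaving out a library gave 476 to 1946 calls, with 482, 485 and 476 without NK cell libraries 1, 2 and 3. The cause was not tested. Levels per length moved by less than 1 SD in 99 of 100 values, and Ltb in NK cells was 45.3 without library 3. Leaving out 1 of 3 libraries can hardly move a mean by 1 SD, so that this count does not measure stability. Ifng in CD8+ T cells fell from 4.50 to 0 RPKM without library 2 and was still within 1 SD. No paired analysis was possible because the 2 cell types share no replicate numbers and the columns of the count table do not carry those of the samples. The comparison of Tyk2-/- with WT CD8+ T cells, with and without a replicate block, was not run. With 3 pools per group and this spread in CD8+ T cells, differences in genes such as Tnf and Lta could not be resolved.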

Other observations

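Markers of other lymphocyte states were counted beside the 10 genes. Normalised counts of 4 memory T cell markers summed to 6213, 6626 and 11704 in CD8+ T cell libraries 1, 2 and 3. The members of this list differed, and Cd44, named after its values were seen, had 9, 374 and 94 counts, highest in library 2, which held Ifng, Ccl3 and Ccl4. The other members were not highest there. Cxcr3 had 2059, 697 and 6126 counts, lowest in library 2, Il2rb had 1286, 1229 and 840, and Ly6c2 had 1724, 3103 and 5035. The part of memory cells in those values was not tested. The sum of 4 naive T cell markers was 92489 to 118544 in CD8+ T cells, compared with 45261 to 54884 for NK cells, and 1 of these markers, S1pr1, had its higher mean in NK cells. Markers of type 1 innate lymphoid cells (5 genes) summed to 14768 to 25625 in CD8+ T cells, compared with 3108 to 4692 for NK cells. The sum in CD8+ T cells was mostly Il7r (10601 ± 784) and Cxcr6 (9292 ± 4849), which T cells also express, whereas Itga1 had 51 to 223 counts in NK cells and 0 in CD8+ T cells, so that the members of this list did not share a direction. Macrophage and monocyte markers (6 genes) summed to at most 2.5 in CD8+ T cells, compared with 38.7 for NK cells, those of CD4+ T cells (3 genes) to at most 116 and 36.0, those of dendritic cells (3 genes) to at most 438 and 739.5, and those of erythroid cells (5 genes) to at most 45.3 and 92.1. The T cell list (6 genes) summed to 262042 to 297831 in CD8+ T cells, compared with 8235 to 13916 for NK cells.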
